A study of Rattus norvegicus with 16 samples.

Results

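Acsf2 encodes a mitochondrial member of the acyl-CoA synthetases, and it was set here beside 7 relatives, Acsl1, Acsl3, Acsl4, Acsl5, Acsl6, Acss1 and Acss2, in rat soleus muscle. The 8 genes were chosen by symbol among 14217 genes with a probe set of their own, and Acsf2 was singled out because its signal differed between the rat lines. A probe set counted as a member when its single symbol in the platform annotation was one of the 8, which gave 12 probe sets of 31042, 1 for Acsf2 and 11 for the relatives. Because the line difference of Acsf2 chose it, that difference is described and not tested. The intervals, SE and shares of probe sets printed with it are descriptions too. A gene chosen for a difference tends to show it larger than it is. The training differences and the interaction of Acsf2 use the same arrays, so the choice may bear on their tests too.

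Soleus is a postural muscle made mostly of slow oxidative fibres. The 16 female rats came from 2 lines bred from N:NIH stock for 16 generations, HCR for high and LCR for low running capacity on a treadmill. HCR trained and LCR trained rats ran uphill intervals on 5 days per week for 8 weeks, and HCR sedentary and LCR sedentary rats of the same age neither trained nor took the treadmill tests of oxygen uptake. At about 7 months of age muscle was sampled, 48 hours past the final run of trained rats, and each of the 4 groups had 4 rats with 1 array each. The lines differ in every allele that selection or drift has fixed, and a muscle homogenate holds fibres together with vessel, fat, connective and blood cells, so that fewer cells of a type and less RNA per cell cannot be told apart.

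Acyl-CoA synthetases join a fatty acid or acetate to coenzyme A, the step that commits it to oxidation, to storage as lipid or to other use. Members differ in the chain length they accept and in where they sit. The long-chain enzymes of the Acsl genes lie on the endoplasmic reticulum, the outer mitochondrial membrane and lipid droplets, the acetyl-CoA synthetases Acss1 and Acss2 lie in mitochondria and in the cytosol and nucleus, and Acsf2 prefers medium-chain acids. In muscle Acsl1 is the main long-chain activity feeding mitochondrial fatty acid oxidation.

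Values are log2 expression per probe set, so a difference of 1 is a doubling, and they compare samples for 1 probe set, not the levels of different genes. Array medians lay between 5.90 and 5.98. The muscle markers Acta1, Ckm, Des, Mb and Ttn had means of 13.90 to 14.09 in HCR trained, 14.05 to 14.13 in HCR sedentary, 14.03 to 14.08 in LCR trained and 14.04 to 14.11 in LCR sedentary rats. Slow fibre markers averaged 13.79 to 14.01 on all arrays but HCR trained 3, where all 8 of them were at their lowest and the mean was 11.41. On that array the 9 measured fast fibre markers averaged 13.87, above the other 15 arrays, and 8 of the 9 were at their highest. On HCR sedentary 2 the means of 7 fibroblast and matrix markers, 12.79, and of 7 macrophage markers, 8.21, were the highest of all arrays. Where leaving out these arrays turned a direction or moved a value by over 1.5 times, the value without them is given for part of the results. A value printed alone can therefore still depend on them. The other 3 HCR trained rats also had higher fast fibre means, 11.53 to 12.38, than the 4 LCR trained rats, at 10.66 to 11.19.

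Acsf2 was lower in HCR than in LCR soleus in both training states. Among sedentary rats it read 7.50, 7.84, 7.90 and 7.80 in HCR sedentary 1 to 4, against 9.70, 9.43, 9.39 and 9.52 in LCR sedentary 1 to 4. All 4 HCR sedentary rats lay more than 1 log2 unit below all 4 LCR sedentary rats, and within each of these groups the rats lay close together, at 7.76 ± 0.18 and 9.51 ± 0.14 (SD, n = 4). The difference was -1.75 (95% interval -2.36 to -1.15), a 3.37-fold lower signal in HCR. Of the 31042 probe sets 0.0322% had a larger absolute difference, and 2.64% were lower in HCR without overlap. The interval and these shares come from the values that chose Acsf2 and are no test of it.

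Among trained rats Acsf2 read 8.61, 7.98, 6.78 and 8.20 in HCR trained 1 to 4, against 9.30, 8.66, 9.22 and 8.74 in LCR trained 1 to 4. HCR trained 1, at 8.61, came close to LCR trained 2, at 8.66, so the groups did not overlap but nearly met. The difference was -1.09 (95% interval -1.69 to -0.48), a 2.12-fold lower signal in HCR. Of all probe sets 1.23% had a larger absolute difference, and 6% were lower in HCR without overlap. Without HCR trained 3, the array with the lowest Acsf2 value and the highest fast fibre mean, it was -0.72. All 4 HCR trained rats lay above all 4 LCR trained rats in the fast fibre mean. Of the 9 markers 5 were higher on average in trained HCR, at a list median of 0.10, and Myh2, Tnnt3, Tnni2 and Tnnc2 were lower. Between the trained lines 1 passed, Myh4, the heavy chain of the fastest fibres, at 5.48 (adjusted p = 0.0281 in limma), where 0.374% of all probe sets did. For training in HCR Myh4 passed as well, at 5.09 (adjusted p = 0.0475 in limma), where 0.187% of all probe sets did. The mean of the list, but not each of its markers, thus moved with the trained line difference, and its part in it was not tested.

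Over both training states the Acsf2 difference was -1.42 (SE 0.20), and all 8 HCR rats lay below all 8 LCR rats. Of all probe sets 0.0483% were lower in HCR without overlap in this way. Without HCR sedentary 2 and HCR trained 3 the difference was -1.25. A technical measure of the arrays also differed between the groups: an index of the beta-actin controls, in which the log2 value towards the middle of the transcript is taken from that at its 3' end, ran from 1.57 to 2.37 in HCR trained, 0.38 to 1.59 in HCR sedentary, 1.06 to 1.36 in LCR trained and 1.33 to 2.07 in LCR sedentary rats. The value of 0.38 was that of HCR sedentary 2, and the other HCR sedentary rats lay at 1.32 to 1.59. With this index as a covariate the Acsf2 difference was -1.15 in trained and -1.70 in sedentary rats. A like index of the GAPDH controls, the 3' less the 5' value, was 1.67 on HCR trained 2 and 0.48 to 0.77 on all other arrays. With the GAPDH index as a covariate the Acsf2 difference was -1.21 in trained and -1.73 in sedentary rats.

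**Figure D1:**
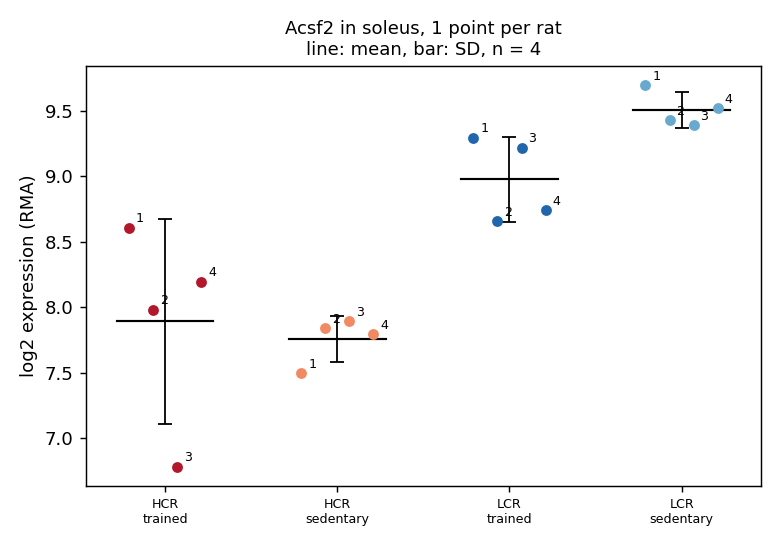
Log2 expression of Acsf2 (vertical axis) in each of the 16 rats by group (horizontal axis), with numbers for replicates, lines for group means and bars for the SD (n = 4). The HCR rats lie between 6.78 and 8.61 and the LCR rats between 8.66 and 9.70.

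Training did not give a called change of Acsf2 in either line. In HCR rats it was 7.89 ± 0.78 in trained and 7.76 ± 0.18 in sedentary rats (SD, n = 4), a difference of 0.13 (95% interval -0.47 to 0.74, adjusted p = 0.850 in limma's moderated test over all probe sets). The spread of the trained group came largely from HCR trained 3. Without that array the difference was 0.50, with the 3 remaining trained values, 7.98 to 8.61, above the 4 sedentary values, 7.50 to 7.90, and the test still did not pass (adjusted p = 0.133). Without HCR trained 1 it was -0.10, so that the sign depends on which rat is left out.

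In LCR rats Acsf2 was 8.98 ± 0.32 in trained and 9.51 ± 0.14 in sedentary rats (SD, n = 4), a difference of -0.53 (95% interval -1.14 to 0.07, adjusted p = 0.562 in limma). All 4 trained values, 8.66 to 9.30, lay below the 4 sedentary values, 9.39 to 9.70, as did those of 5.61% of all probe sets. Without any 1 array the difference stayed between -0.64 and -0.42. Over both lines the training difference was -0.20 (SE 0.20, adjusted p = 0.812 in limma), and 0.000267 without HCR sedentary 2 and HCR trained 3. The interaction, the training difference in HCR minus that in LCR, was 0.67 (SE 0.40, adjusted p = 0.390 in limma). It is also the trained line difference minus the sedentary one, so its test is not free of the choice of Acsf2. Without HCR sedentary 2 and HCR trained 3 it was 1.06, with differences of 0.53 in HCR and -0.53 in LCR, and it did not pass (adjusted p = 0.0878).

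The order of the group means was thus LCR sedentary, LCR trained, HCR trained and HCR sedentary. The steps between LCR sedentary and LCR trained and between HCR trained and HCR sedentary did not pass the test. The line difference was smaller in trained than in sedentary rats by the same 0.67 that the interaction tested.

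The relatives were tested in the line comparisons, since the choice of Acsf2 by its line difference did not use them. The list of members was, however, drawn up with earlier results of these data known. In limma 0 of their 11 probe sets passed at an adjusted p of 0.05 in sedentary rats, in trained rats, or over both training states, where 0.00966%, 0.374% and 0.087% of all probe sets did. At an unadjusted p under 0.05 there was 1 of 11 in each, against 8.37%, 19.7% and 10.4% of all probe sets. Their median difference over both training states was 0.03, against 0.02 for all probe sets. No relative separated the 8 HCR from the 8 LCR rats.

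**Figure D2:**
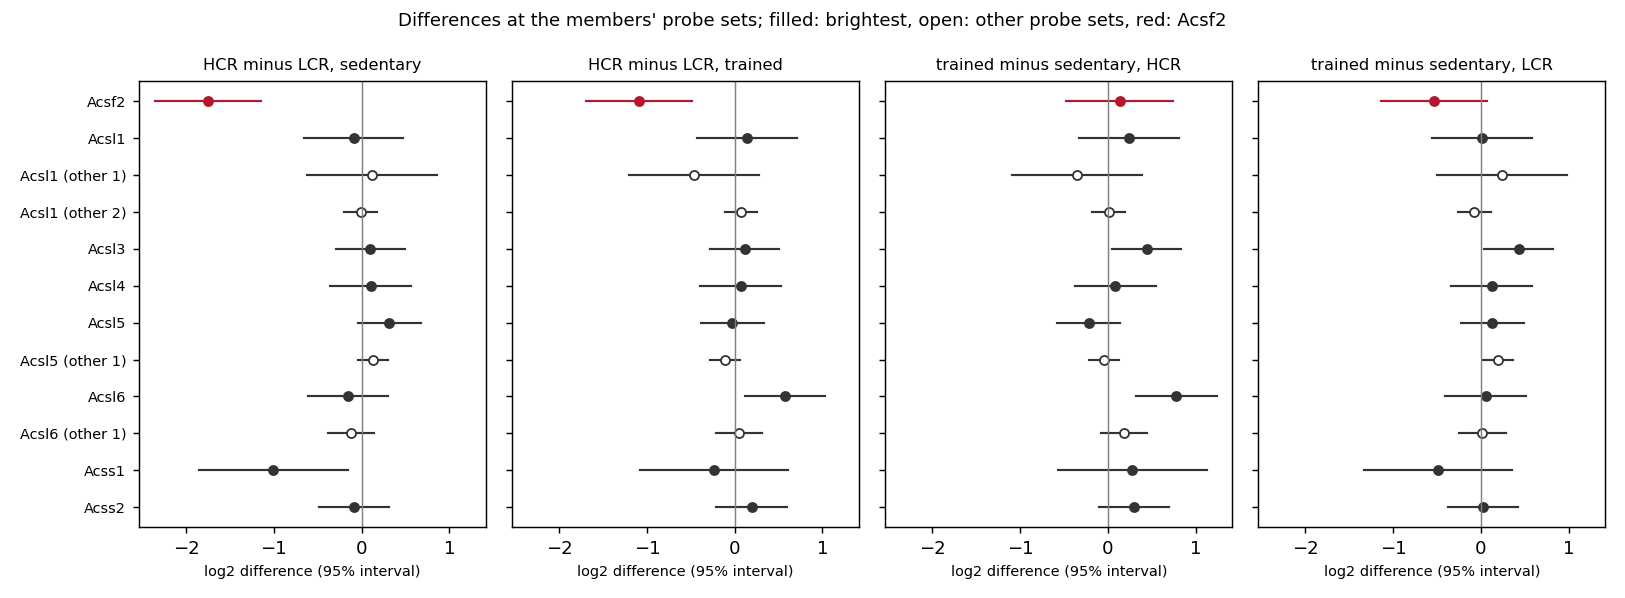
Log2 differences (horizontal axes, points with 95% intervals) at the 12 probe sets of the 8 genes (vertical axis) for HCR minus LCR in sedentary and trained rats and for trained minus sedentary in HCR and LCR. In the HCR minus LCR panels Acsf2 lies at -1.75 and -1.09, and the relative farthest from 0 is Acss1 in sedentary rats at -1.0.

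Acss1, the mitochondrial acetyl-CoA synthetase that activates acetate for oxidation, was the relative with the largest line difference. Among sedentary rats it read 9.58, 8.09, 10.07 and 9.63 in HCR sedentary 1 to 4, against 10.48, 10.35, 10.61 and 9.95 in LCR sedentary 1 to 4. HCR sedentary 2 lay lowest of all 16 arrays, and HCR sedentary 3 lay within the LCR range. The difference was -1.0 (SE 0.40, adjusted p = 0.585 in limma), and without HCR sedentary 2 and HCR trained 3 it was -0.58 (adjusted p = 0.645).

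In trained rats Acss1 read 9.63, 10.07, 8.61 and 10.18 in HCR trained 1 to 4, against 10.31, 9.36, 10.09 and 9.68 in LCR trained 1 to 4. The groups overlapped, and HCR trained 3 was again below the other 3 of its group. The difference was -0.24 (SE 0.40, adjusted p = 0.766), and without HCR trained 3 it was 0.10. The training differences were 0.28 in HCR (adjusted p = 0.760) and -0.49 in LCR (adjusted p = 0.702). The HCR value was 0.62 without HCR trained 3 and -0.14 without HCR sedentary 2.

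Acss2, the cytosolic and nuclear acetyl-CoA synthetase that makes acetyl-CoA for lipid synthesis and histone acetylation, averaged 10.19 ± 0.21 in HCR trained, 9.89 ± 0.35 in HCR sedentary, 10.00 ± 0.35 in LCR trained and 9.98 ± 0.18 in LCR sedentary rats (SD, n = 4). The groups overlapped in every comparison. Its interval for the line difference was -0.49 to 0.32 in sedentary and -0.21 to 0.59 in trained rats.

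Acsl6, a long-chain synthetase best known from brain, where it favours docosahexaenoic acid, had the smallest p among the relatives in the training comparison of HCR. It read 9.92, 9.69, 10.37 and 9.39 in HCR trained 1 to 4, against 9.03, 8.62, 9.31 and 9.28 in HCR sedentary 1 to 4. All 4 trained rats lay above all 4 sedentary rats, as in 4.94% of all probe sets. The difference was 0.78 (95% interval 0.32 to 1.24) and did not pass (adjusted p = 0.105 in limma). It was 0.61 without HCR trained 3, where the fast fibre markers were highest, and 0.46 without HCR sedentary 2 and HCR trained 3.

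In LCR rats Acsl6 read 9.35, 9.07, 9.07 and 9.59 in trained rats 1 to 4, against 9.11, 9.56, 9.37 and 8.83 in sedentary rats 1 to 4. These groups overlapped through most of their range, and the difference was 0.05 (95% interval -0.41 to 0.51, adjusted p = 0.952). The interaction was 0.73 (SE 0.30, adjusted p = 0.221) and 0.41 without HCR sedentary 2 and HCR trained 3, so a difference in response between the lines was not called. In trained rats Acsl6 differed by 0.57 between HCR and LCR (SE 0.21, adjusted p = 0.160). Its other probe set lay at the 2.07th percentile of probe set means, averaging 4.10, and differed by 0.19 for training in HCR. That was 0.01 without HCR sedentary 2 and HCR trained 3.

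Acsl3, a synthetase of the endoplasmic reticulum and lipid droplets, was higher on average in trained rats of both lines without passing. It read 6.63, 6.43, 7.11 and 6.43 in HCR trained 1 to 4, against 6.19, 6.48, 6.06 and 6.10 in HCR sedentary 1 to 4. In LCR it read 6.67, 6.78, 6.23 and 6.47 in trained rats 1 to 4, against 6.0, 6.60, 5.83 and 6.0 in sedentary rats 1 to 4. In each line 1 sedentary rat, number 2, lay within the trained range, and the other 3 lay below it.

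The Acsl3 difference was 0.44 in HCR (95% interval 0.05 to 0.83, adjusted p = 0.227), or 0.29 without HCR trained 3, and 0.43 in LCR (95% interval 0.04 to 0.82, adjusted p = 0.471). Over both lines it was 0.44 (SE 0.13, adjusted p = 0.259 in limma), and with arrays weighted by their quality it was 0.43 and passed (adjusted p = 0.0375). With these weights 1148 of all 31042 probe sets passed in that comparison, against 2 without weights. Over the other settings the adjusted p reached 0.296, and with 1 array left out it lay between 0.0857 and 0.496. The interaction was 0.01 (95% interval -0.54 to 0.56). On HCR trained 3 Acsl3 was at its highest of all arrays.

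**Figure D3:**
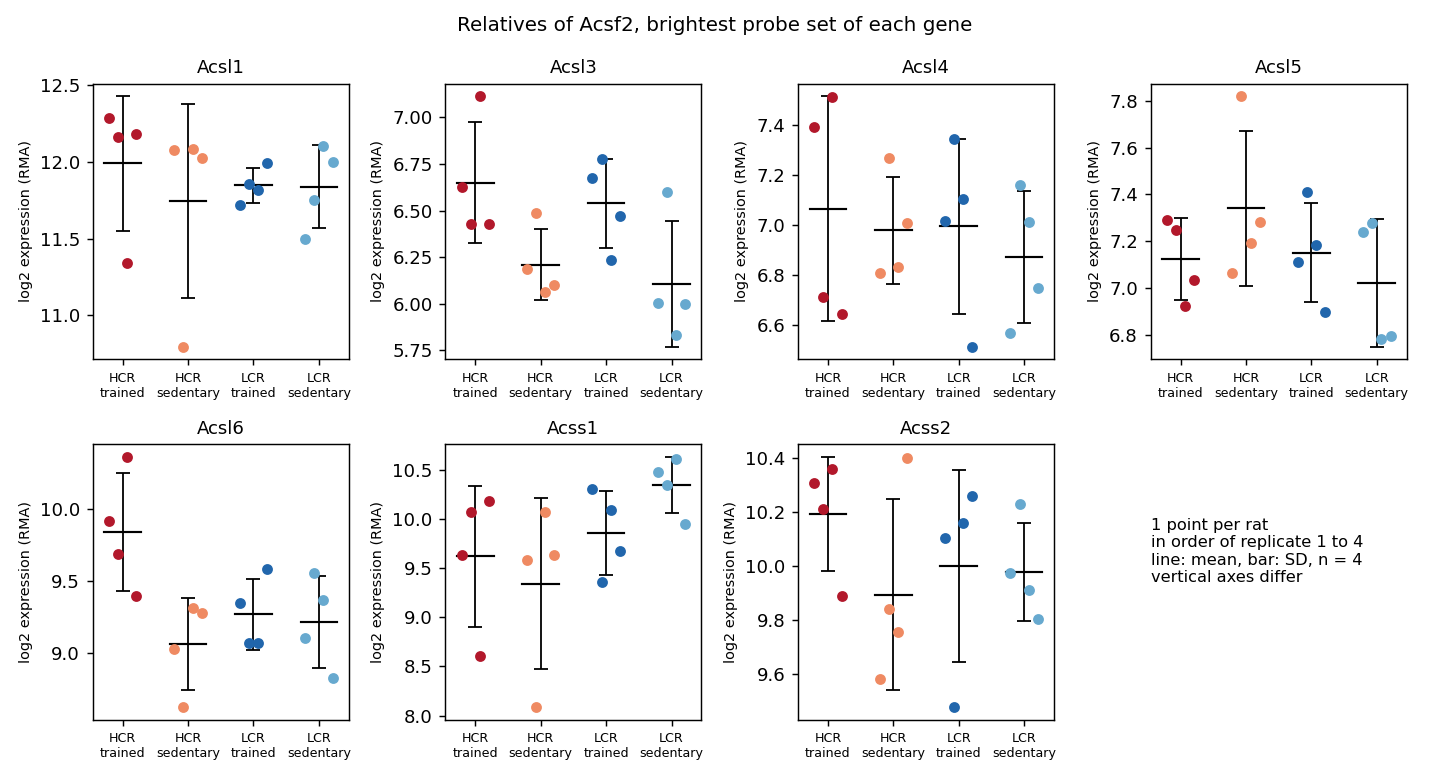
Log2 expression (vertical axes, which differ between panels) of the 7 relatives at the brightest probe set of each, by rat and group, with group means and SD (n = 4). Acsl1 and Acss1 each have 1 low rat in HCR trained (replicate 3) and 1 in HCR sedentary (replicate 2), and Acsl6 in HCR trained lies between 9.39 and 10.37.

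Acsl1, the long-chain synthetase of muscle fatty acid oxidation, did not differ by a called amount in any comparison. Its brightest probe set read 12.28, 12.16, 11.34 and 12.18 in HCR trained 1 to 4, 12.08, 10.80, 12.08 and 12.02 in HCR sedentary 1 to 4, 11.72, 11.85, 11.82 and 11.99 in LCR trained 1 to 4 and 11.50, 11.75, 12.10 and 12.00 in LCR sedentary 1 to 4. The arrays HCR trained 3 and HCR sedentary 2 fell away from the other 3 of their groups. The line difference was 0.14 in trained rats (95% interval -0.42 to 0.71) and -0.09 in sedentary rats (95% interval -0.66 to 0.48). Without both arrays the trained difference was 0.36 (adjusted p = 0.0871) and the sedentary one 0.22.

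The second Acsl1 probe set averaged 10.91 and correlated with the brightest at r = 0.616 over 16 arrays. Its trained line difference was -0.47 (SE 0.35, adjusted p = 0.472), opposite in sign to the brightest. The third averaged 4.70, at the 11.4th percentile of probe set means, and its r with the brightest was 0.0122. The 3 probe sets therefore gave no common direction for Acsl1.

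Acsl4, which prefers arachidonic acid and is known for making membranes prone to iron-dependent lipid peroxidation, averaged 7.07 ± 0.45 in HCR trained, 6.98 ± 0.21 in HCR sedentary, 7.00 ± 0.35 in LCR trained and 6.87 ± 0.26 in LCR sedentary rats (SD, n = 4). All 4 groups overlapped. Its training differences were 0.09 in HCR and 0.12 in LCR, and the intervals ran from -0.37 to 0.55 and from -0.34 to 0.58. Without HCR trained 3 the HCR difference was -0.06.

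Acsl5, a long-chain synthetase of mitochondria and the endoplasmic reticulum, averaged 7.12 ± 0.18 in HCR trained, 7.34 ± 0.33 in HCR sedentary, 7.15 ± 0.21 in LCR trained and 7.02 ± 0.27 in LCR sedentary rats. The sedentary line difference was 0.32 (SE 0.17, adjusted p = 0.625 in limma) and was 0.16 without HCR sedentary 2, which held the highest Acsl5 value, 7.82. Its other probe set, at a mean of 6.24, differed by 0.19 for training in LCR (SE 0.08, adjusted p = 0.466).

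In the training comparisons 0 of the 11 probe sets of the relatives passed in HCR, in LCR, over both lines or in the interaction in limma, where 0.187%, 0.00322%, 0.00644% and 0% of all probe sets did. At an unadjusted p under 0.05 there were 2 in HCR, 2 in LCR, 2 over both lines and 1 in the interaction, against 17.7%, 9.76%, 9.55% and 18.3% of all probe sets. Without HCR sedentary 2 and HCR trained 3 the number that passed was 0 in each of the 7 comparisons, with a smallest adjusted p of 0.0871.

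The members did not move alike on the 2 arrays that stand apart. On HCR trained 3, compared with the mean of the other 3 HCR trained rats, Acsf2 was at -1.48, Acss1 at -1.35, Acsl1 at -0.87 and Acsl5 at -0.27. Acsl6 was at 0.70, Acsl3 at 0.62, Acsl4 at 0.60 and Acss2 at 0.22 on the same array. Slow fibre markers were at their lowest and fast fibre markers at their highest there, and adipocyte markers averaged 5.98, the lowest of all arrays.

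On HCR sedentary 2, compared with the other 3 HCR sedentary rats, Acss1 was at -1.68, Acsl1 at -1.26 and Acsl6 at -0.59. Acsl5 was at 0.64, Acsl4 at 0.39 and Acsl3 at 0.37, while Acsf2 was at 0.11 and Acss2 at -0.07. Thus Acsf2 was far from its group on HCR trained 3 and within its group's range on HCR sedentary 2, the array with the high matrix markers. HCR sedentary 2 also had a high fast fibre mean for its group, 11.56, against 10.37 to 10.75 in the other HCR sedentary rats. HCR trained 1 had a fast fibre mean of 12.38, below HCR trained 3 alone, and the highest Acsf2 value of the HCR rats, 8.61. The part that fibre type or other cells have in these values was not tested.

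**Figure D4:**
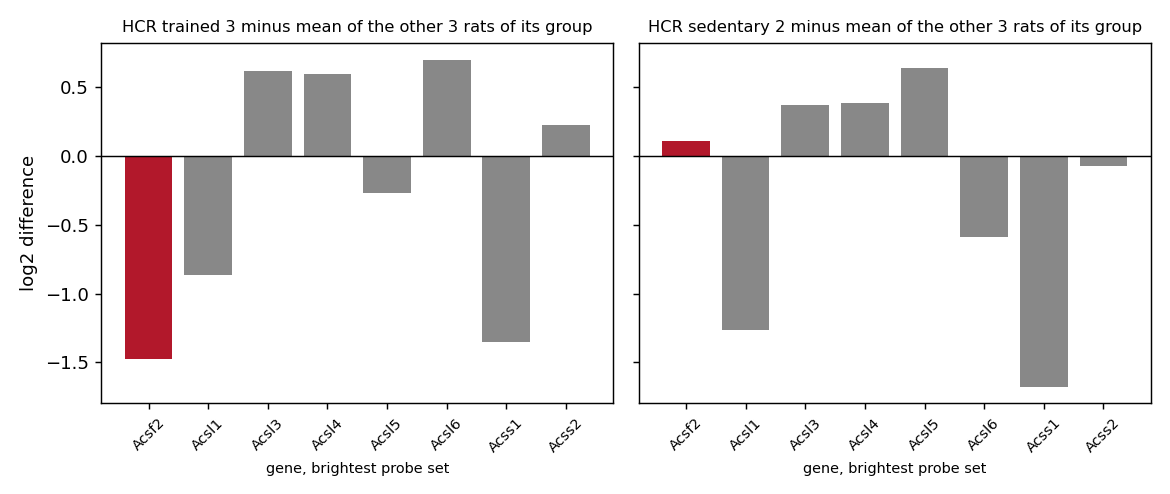
Log2 difference (vertical axis) between 1 array and the mean of the other 3 rats of its group, for each of the 8 genes at its brightest probe set (horizontal axis), for HCR trained 3 and HCR sedentary 2. Acsf2 is at -1.48 on HCR trained 3 and at 0.11 on HCR sedentary 2.

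Markers of other cells gave these levels beside the Acsf2 values. The mean of the 6 measured of 7 adipocyte markers ran from 5.98 to 8.34 in HCR trained, 6.34 to 7.16 in HCR sedentary, 6.36 to 6.89 in LCR trained and 6.75 to 7.66 in LCR sedentary rats. All 6 were higher on average in HCR among trained rats, at a median difference of 0.82. Among sedentary rats 2 of the 6 were higher in HCR, at a median of -0.41, and 0 passed in either comparison. Adipoq, adiponectin of fat cells, averaged 8.11 in HCR trained, 7.63 in HCR sedentary, 7.16 in LCR trained and 8.23 in LCR sedentary rats. It ran from 5.99 to 9.86 in HCR trained and from 7.91 to 9.02 in LCR sedentary rats. Endothelial means ran from 7.77 to 8.64 in HCR trained, 8.08 to 8.27 in HCR sedentary, 8.35 to 8.49 in LCR trained and 8.12 to 8.27 in LCR sedentary rats.

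Both measured blood markers of 4, Hbb and Alas2, were lower on average in HCR in both training states, as Acsf2 was, with median differences of -0.54 in trained and -0.38 in sedentary rats, and neither passed. Their mean ran from 8.54 to 8.83 in HCR trained against 8.84 to 9.52 in LCR trained rats, and from 8.19 to 8.83 in HCR sedentary against 8.29 to 9.42 in LCR sedentary rats. Of the 7 fibroblast and matrix markers all were lower in HCR among trained rats, at a median of -1.11. Of these 1 passed, Dcn, decorin, at -0.66 (adjusted p = 0.0391 in limma), where 0.374% of all probe sets did. All 7 were higher in HCR among sedentary rats, at a median of 0.84, and 0 passed. HCR sedentary 2 had a matrix mean of 12.79, against 10.36 to 10.99 in the other rats of its group. LCR sedentary rats lay at 10.03 to 11.19. Among the 7, Col1a1 differed by 1.02 in sedentary rats, and by 0.44 without HCR sedentary 2 and HCR trained 3. The 7 macrophage markers had medians of -0.34 in trained and 0.47 in sedentary rats. Their mean was 8.21 on HCR sedentary 2, against 7.02 to 7.28 in the other HCR sedentary rats. The part of these cells in the Acsf2 difference was not tested.

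Genes whose pattern over the 16 arrays was most like that of Acsf2 were Akr1b10 (Pearson's r = 0.871), an aldo-keto reductase, Foxj2 (0.861), a forkhead transcription factor, Cand2 (0.859), a muscle regulator of cullin ligases, Vamp8 (0.840), a vesicle fusion protein, and Vars1 (0.827), the valyl-tRNA synthetase. They were the 5 of 10703 genes with the highest r. Akr1b10 averaged 6.0 ± 0.38 in HCR trained, 5.82 ± 0.24 in HCR sedentary, 6.91 ± 0.37 in LCR trained and 6.91 ± 0.14 in LCR sedentary rats (SD, n = 4), so it too was lower in HCR. These r values carry the line difference itself. Without the 2 arrays farthest from the median of Acsf2, HCR trained 3 and HCR sedentary 1, they lay between 0.742 and 0.873.

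With each array taken as its deviation from the mean of its group, the 5 genes most like Acsf2 were Ace (r = 0.939), the angiotensin-converting enzyme, Vwf (0.917), von Willebrand factor of endothelium, Sparcl1 (0.907), a matrix protein, Capn2 (0.901), a calpain, and Poc1b (0.900), a centriole protein. Without HCR trained 3 and HCR trained 1, the farthest arrays, these fell to between 0.606 and 0.818. Vwf read 7.11 and Ace 5.81 on HCR trained 3, below their group means of 8.26 and 6.39. Among the relatives Acss1 had the highest r with Acsf2 within groups, 0.518, which was 0.259 without HCR trained 3.

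The neighbours of Acsf2 in the gene order of the RefSeq assembly GRCr8 were set beside it for the line difference over both training states. The 10 measured protein-coding genes on either side, 20 in all, lay between -0.14 and 0.20, against -1.42 for Acsf2. Of the 20, 0 passed in limma in any line comparison, where 0.087% of all probe sets passed over both states. At an unadjusted p under 0.05 there were 3 of 20, against 10.4% of all probe sets. The 3, named after their values were seen, were Spag9, Cacna1g and Sgca. Spag9, a scaffold protein of kinase signalling, differed by -0.12 (SE 0.04, adjusted p = 0.381), Cacna1g, a T-type calcium channel, by 0.20 (SE 0.06, adjusted p = 0.282), and Sgca, alpha-sarcoglycan of the muscle membrane, by 0.16 (SE 0.07, adjusted p = 0.477).

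Chad, chondroadherin of the matrix, and Col1a1, a chain of type I collagen, differed more between the lines within a training state, and in opposite directions in the 2 states. Chad differed by 1.0 in trained and -0.75 in sedentary rats (adjusted p = 0.193 and 0.633), and Col1a1 by -1.30 and 1.02 (adjusted p = 0.202 and 0.624). Acsf2 was lower in HCR in both. Without HCR sedentary 2 and HCR trained 3, an alternative chosen after seeing the data, the 20 neighbours lay between -0.49, at Col1a1, and 0.33, at Spata20. The sedentary differences were then -0.45 at Chad and 0.44 at Col1a1, and 1 neighbour passed between the trained lines, Sgca at 0.34 (adjusted p = 0.0468), where 4.24% of all probe sets did.

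**Figure D5:**
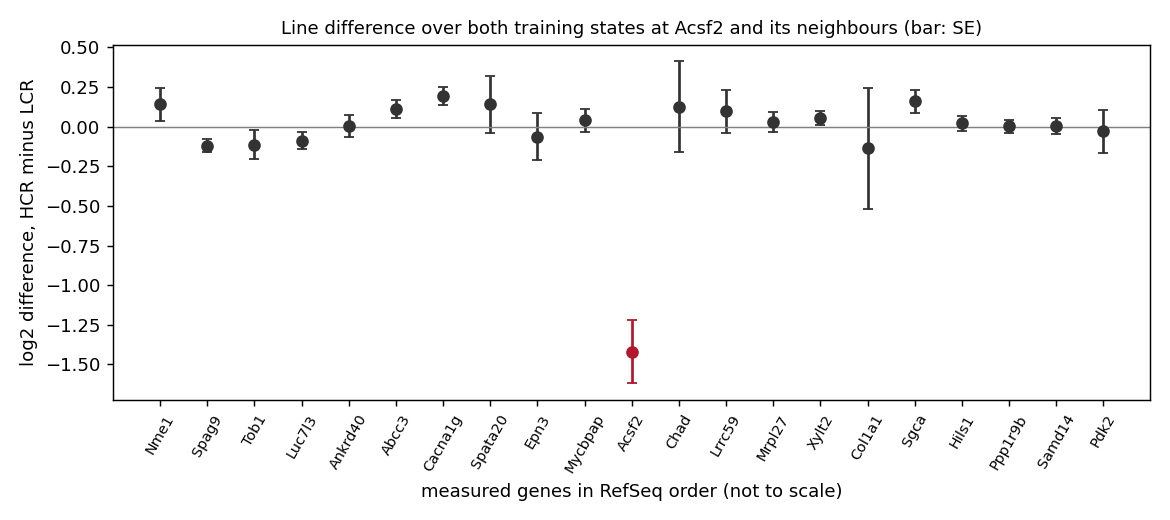
Log2 difference between HCR and LCR over both training states (vertical axis, bars for the SE) at Acsf2 and the 10 measured genes on each side of it in RefSeq order (horizontal axis, not to scale). The 20 neighbours lie between -0.14 and 0.20 and Acsf2 at -1.42.

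Around the synthetases, 8 lists held other genes of acyl-CoA metabolism: other synthetases, thioesterases, acyl-CoA binding proteins, the carnitine shuttle, mitochondrial beta oxidation, glycerolipid synthesis, fatty acid synthesis and iron-dependent lipid peroxidation. Of their 100 genes 91 were measured, and 1 passed in limma in any of the 7 comparisons, in each of which at most 0.374% of all probe sets passed. It was Crot, the peroxisomal carnitine octanoyltransferase that hands shortened acyl chains to carnitine, which rose with training in HCR. Crot lay between 7.93 and 8.08 in HCR trained rats, against 6.90 to 7.49 in HCR sedentary rats, without overlap, as in 4.94% of all probe sets. In this comparison 0.187% of all probe sets passed. The difference was 0.72 (SE 0.13, adjusted p = 0.0475), and it passed in 6 of 26 other settings, with differences of 0.50 to 0.78 and adjusted p from 0.0156 to 0.509.

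Among the 14 measured other synthetases, which include the medium-chain Acsm genes and the Slc27a transport proteins, 0 passed in any comparison. Acsf3, the mitochondrial malonyl-CoA synthetase and nearest namesake of Acsf2, differed by -0.23 between the lines in sedentary rats (SE 0.09, adjusted p = 0.590) and by -0.20 for training in LCR (adjusted p = 0.514). The list median of the line difference was 0.06 (0.04 without the 2 arrays) in trained and 0.04 in sedentary rats, against 0.04 and 0.01 for all probe sets.

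Genes of mitochondrial beta oxidation, the pathway that uses activated fatty acids, were lower in HCR in all 15 genes among sedentary rats, at a median of -0.19 against 0.01 for all probe sets, and 0 passed. This turned without HCR sedentary 2 and HCR trained 3, with 13 of 15 higher in HCR and a median of 0.07. In trained rats 10 of the 15 were higher in HCR, at a median of 0.08, which was 0.23 without those arrays. The carnitine shuttle had medians of 0.20 in trained and -0.25 in sedentary rats, and without those arrays 0.24 in trained and 0.000396 in sedentary rats. Crot differed by 0.48 in trained rats (adjusted p = 0.0818). In fatty acid synthesis Me1, malic enzyme, differed by 0.64 in trained rats (adjusted p = 0.0563) and Acaca, acetyl-CoA carboxylase, by -1.02 in sedentary rats (adjusted p = 0.564).

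Thioesterases, which undo the synthetase reaction, had 0 of 11 past the threshold, with Them4 at 0.52 (adjusted p = 0.106) and Acot13 at 0.54 (adjusted p = 0.201) for training in HCR. Acot13 was at 0.27 without HCR sedentary 2, and without HCR trained 3 as well Them4 was at 0.34. Acyl-CoA binding genes had 0 of 5, with Dbi at 0.32 (adjusted p = 0.202) for training in HCR, or 0.18 without HCR sedentary 2. Glycerolipid synthesis had 0 of 12, with Agpat4 at 0.31 for training in LCR (adjusted p = 0.313). Genes of iron-dependent lipid peroxidation, the form of cell death in which Acsl4 acts and for which ACSF2 was named in a human cell screen, had 0 of 11, with Tfrc, the transferrin receptor, at 0.60 (adjusted p = 0.150) and Ireb2 at -0.43 (adjusted p = 0.137) between the trained lines. Without HCR sedentary 2 and HCR trained 3, an alternative chosen after seeing the data, 4 genes of the lists passed between trained HCR and LCR, namely Crot, Eci2, Agpat2 and Me1, all higher in HCR. With those arrays left out 4.24% of all probe sets passed in that comparison.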

How the data were processed

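Total RNA from 20 mg of soleus per rat was hybridised to 1 Affymetrix array per rat. The authors deposited log2 values, 1 for each probe set and array. Per the submitters' processing notes RMA and limma were used; their versions are not given in the sources here. RMA removes shifts common to all probe sets. After 57 control probe sets were left out, limma 3.58.1 in R 4.3.3 was fitted to 31042 probe sets with 4 group means over 16 arrays and 12 residual degrees of freedom, with Benjamini-Hochberg adjustment within each of 7 comparisons at 0.05. The fit was tested on simulated data. The brightest probe set of a gene was described first. Genes of the lists were named where they passed, or as 1 of the 2 of smallest p in a comparison between 2 groups. Genes most like Acsf2 were the 5 of highest r with a mean at or above the 40th percentile, 5.61. The RefSeq table served for names and gene order alone. The members and lists were chosen with earlier results of these data known. Replicate numbers were taken from the titles, and same-numbered arrays were checked for deviating together. Alternatives were other normalizations, a filter on dim probe sets, other moderation, array weights, a replicate block, fits of 2 groups, control indices as covariates, a 1.5-fold minimum and arrays left out. Scan dates were not used here. Precision is limited by there being 4 arrays in a group.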

Additional observations from a re-analysis of the deposited data

Results flagged for a closer look

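In 3 of 48 groups of 4 rats, 1 rat lay far from the other 3 by Dixon's test at the 95% level, which chance flags in about 1 of 20 groups. Acsl1 at its brightest probe set read 11.34 on HCR trained 3, below the other 3 at 12.16 to 12.28. The same probe set read 10.80 on HCR sedentary 2, below the other 3 at 12.02 to 12.08. The dim second probe set of Acsl6 read 4.13 on HCR sedentary 1, above the other 3 at 3.92 to 3.96.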

How the results depend on the processing

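The line differences of Acsf2 kept their sign under every alternative run. They ranged from -1.80 to -1.67 in sedentary, -1.33 to -0.72 in trained and -1.54 to -1.23 over both states with 1 array left out. Training differences of Acsf2 did not pass under any alternative. With 1 array left out they ranged from -0.10 to 0.50 in HCR, from -0.64 to -0.42 in LCR and from -0.32 to -0.01 over both lines, and the interaction from 0.43 to 1.03. Over both lines the training difference turned to 0.0447 with array weights and 0.000267 without HCR sedentary 2 and HCR trained 3, and the cause was not tested. The count of relatives' probe sets was 0 throughout, except 1 (Acsl3) with array weights for training over both lines. There 1148 of all 31042 probe sets passed, against 2 without weights. The count of all probe sets varied more, from 0 to 1304 for training in HCR and from 5 to 3525 between the trained lines. Same-numbered arrays correlated between -0.483 and 0.325 in their deviations, so the numbers do not pair the rats. With the replicate block Acsf2 differed by -1.75 and -1.09 between lines and by 0.13 and -0.53 with training, and 0 relatives passed. Acsf2 had 1 probe set, so no second one could check it.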
